A study of Mus musculus with 6 samples.

Results

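A set of 8 transcripts that carry small nucleolar RNAs (snoRNAs) in their introns was followed through orthotopic liver tumors of control and stressed mice. They were Gas5, Zfas1, Epb41l4aos, Snhg8, Snhg1, Snhg12, 2410006H16Rik and 1110038B12Rik, taken by gene symbol, and all 8 were found among the 34099 gene identifiers counted. The UMIs (unique molecular identifiers, counting captured RNA molecules) of each transcript were summed per mouse over each deposited cell type and each deposited tumor cluster. The set was chosen by its levels across these cell types and clusters, so those levels are given as a description without a test.

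Single-cell RNA sequencing (10x Genomics) covered tumor tissue of 6 wild type male C57BL/6J mice, 1 library per mouse. All mice carried H22 cells, a murine hepatocellular carcinoma line, implanted in the liver. The 3 stress mice underwent chronic unpredictable mild stress (CUMS), in which changing mild stressors were applied daily, and the 3 control mice were kept under standard housing without stressors. The comparison asks which transcripts differed in the tumor after chronic stress. Of 61374 barcodes, 58794 were annotated as cells and 29638 as tumor cells, with 149558935 to 187728350 UMIs per mouse and a median of 7166 to 20478 UMIs per cell. Any 2 libraries shared between 13 and 40 annotated barcodes. The control libraries were processed with Cell Ranger 9.0.0 and the stress libraries with 7.1.0, so software version and stress cannot be told apart. The markers Krt18 and Cldn6 were highest in the cells labelled as tumor cells, whereas Krt8 and Epcam were highest in the small group labelled as hepatic stellate cells (HSCs).

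A snoRNA host gene is transcribed and spliced like an mRNA. Its introns are processed into snoRNAs, which guide the chemical modification of ribosomal RNA: box C/D snoRNAs direct 2′-O-methylation and box H/ACA snoRNAs direct pseudouridylation. The spliced RNA left over usually encodes no protein. Many such RNAs begin with a terminal oligopyrimidine (TOP) tract, the start that also marks ribosomal protein mRNAs and couples their translation to growth signalling, and many are short-lived because translating ribosomes expose them to nonsense-mediated decay. The counts here come from the poly(A)-captured host transcripts, and the snoRNAs themselves were not measured.

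In GENCODE M21 (GRCm38) the 8 genes hold 33 annotated snoRNA genes at 31 separate places, each inside an intron of at least 1 host transcript. Snord80 in Gas5 and Snora16a in Snhg12 are each annotated by a pair of overlapping records, and a record in Gas5 typed as a snoRNA has the microRNA symbol Mir5117. Counted by place, Gas5 (chr1:161034422-161038539, plus strand) holds 9 with that record included, and Snhg1 (chr19:8723475-8726443, plus strand) holds 8. Snhg12 (chr4:132308623-132311024, plus strand) holds 4. Zfas1 (chr2:167062934-167065862, plus strand) and 2410006H16Rik (chr11:62602877-62604807, plus strand) hold 3 each, and 1110038B12Rik (chr17:34950238-34952471, minus strand) holds 2. Snhg8 (chr3:123507552-123508404, minus strand) and Epb41l4aos hold 1 each. All 8 are annotated as noncoding genes. Gas5 overlaps Zbtb37 and Zfas1 overlaps Znfx1 on the opposite strand, and Zfas1 also overlaps Gm27494 on its own strand. The strand setting of the counting is not given in the sources used here, so reads of these overlapping genes may not have been kept apart. Zbtb37 and Znfx1 were low in tumor cells, at 9.18 and 17.1 CPM (UMIs of a gene per 1000000 UMIs of the summed cells).

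2410006H16Rik is the transcript on which the comparison with stress turned. Its 3 intronic snoRNAs are box C/D snoRNAs, shown here from GRCm38 with the first TGATGA (box C) and the last CTGA (box D) in capitals. Snord49b holds another, overlapping TGATGA 3 bases further on, so its box C may lie there. They lie at chr11:62603079-62603150, chr11:62603450-62603521 and chr11:62604515-62604586, all on the plus strand.
Snord49b: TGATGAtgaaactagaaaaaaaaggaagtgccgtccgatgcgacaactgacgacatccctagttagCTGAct
Snord49a: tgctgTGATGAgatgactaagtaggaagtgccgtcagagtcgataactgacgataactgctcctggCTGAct
Snord65: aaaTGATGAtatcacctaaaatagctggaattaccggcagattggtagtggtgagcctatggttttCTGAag
Each is 72 bases long, and none overlaps an exon of the host.

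The starts of the host genes were compared because many snoRNA hosts are known for a TOP tract. Starts listed by RefSeq (GRCm38.p6) were searched for 7 of the 8 genes. No window of Epb41l4aos was included, so that gene was not searched for a tract. A tract was counted where a C followed by at least 4 pyrimidines (C or T) began within 5 bases of the listed start, on the gene's strand. The 30-base windows below hold 15 bases on either side of the listed start, with the tract in capitals. They lie at chr11:62602862-62602891, chr3:123508322-123508351, chr4:132308663-132308692, chr17:34952454-34952483, chr1:161035151-161035180, chr19:8723472-8723501 and chr2:167062919-167062948, in the order shown.
2410006H16Rik: tcacgcgccgtCTTTCTCTgcggccatcat
Snhg8: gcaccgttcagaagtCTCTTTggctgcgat
Snhg12: ggccgttctcagtCCTTTCTCgcttcatcc
1110038B12Rik: gggcggcacacgggtCTCTTTgtgcacccg
Gas5: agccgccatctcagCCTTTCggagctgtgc
Snhg1: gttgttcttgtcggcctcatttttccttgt
Zfas1: ttgactgcgccccgggcggccgcaggtctc
The tract was found in 5 of 7 host genes (71.4%), against 21.2% of 27025 genes with a listed start and 46.9% of 64 ribosomal protein genes. For Gas5 it was found at the downstream of its 2 listed starts. No such tract was found in the windows of Snhg1 and Zfas1. By the same rule it was found in only 30 of 64 ribosomal protein genes, a class marked by TOP starts. A window without a tract is therefore not shown to lack a TOP start.

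In summed tumor cells, 1 of the 8 transcripts changed with stress, and that was 2410006H16Rik, which was lower. Its level was 825, 709.3 and 738 CPM in the control mice and 587.1, 388.6 and 485.8 CPM in the stress mice, or 757.4 ± 60.2 against 487.2 ± 99.3 CPM (SD, n = 3 each). Every stress mouse was below every control mouse. The log2 fold change was −0.77 (standard error, SE, 0.18), a level 41.3% lower, and the adjusted p was 0.02495 (edgeR, quasi-likelihood, Benjamini-Hochberg over 18856 genes). Against this single call, 9.46% of all genes tested in tumor cells were lower and 21.4% changed in either direction, so a count of 1 in 8 is close to the background and is no result about the set. The call was kept without control mouse 2 (adjusted p = 0.0209, edgeR) or stress mouse 1 (0.0176) and lost without any of the other 4 mice: leaving out control mouse 1 gave an adjusted p of 0.0742, control mouse 3 0.0761, stress mouse 2 0.0613 and stress mouse 3 0.0837, and thinning cells to 1000 UMIs gave 0.0673. Thinning left out the cells below that depth, 131 of 18084 control and 193 of 11554 stress tumor cells. DESeq2 called 4 of the 8, adding Epb41l4aos, Snhg8 and Snhg12, each lower in stress mice, where 22.8% of all genes were called by DESeq2 in either direction. The log2 fold change stayed between −0.98 and −0.60 when any 1 mouse was left out.

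**Figure D1:**
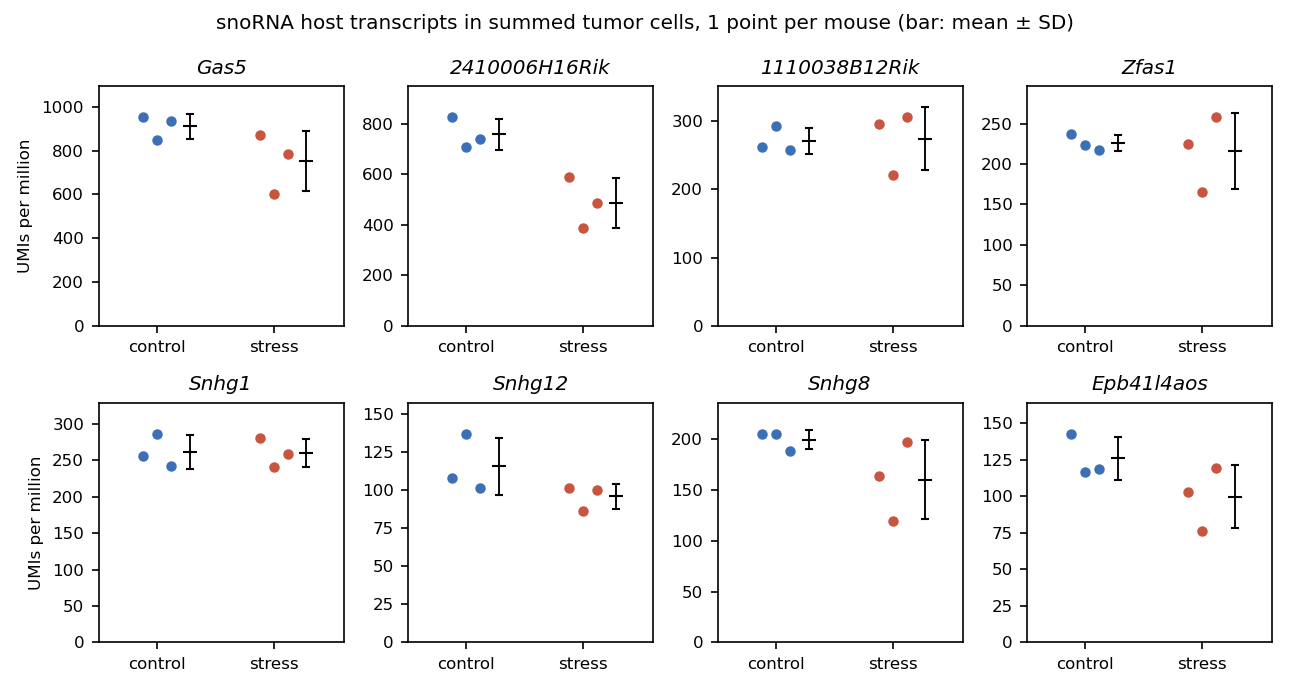
CPM of the 8 snoRNA host transcripts in summed tumor cells of 3 control (blue) and 3 stress (red) mice, 1 point per mouse, with mean ± SD in black. Every axis starts at 0. For 2410006H16Rik the stress mice lie at 388.6 to 587.1 and the control mice at 709.3 to 825, whereas the 2 groups overlap or nearly meet for the other 7 transcripts.

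Gas5, a host first known from growth-arrested cells, was measured at 952, 847 and 935 CPM in control and 872, 604 and 783 CPM in stress mice. The groups overlapped, and the log2 fold change of −0.41 (SE 0.17) did not pass the test (adjusted p = 0.119, edgeR). Snhg8, the host of the box H/ACA snoRNA Snora24, was at 205.6, 205.5 and 188.8 CPM in control and 163.8, 119.6 and 197.9 CPM in stress mice. Its log2 fold change was −0.45 (adjusted p = 0.106, edgeR), and stress mouse 3 lay within the control range.

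Epb41l4aos, which lies on chromosome 18 on the strand opposite to Epb41l4a, was at 142.9, 116.4 and 119.0 CPM in control and 103.3, 76.57 and 119.4 CPM under stress. The log2 fold change was −0.48 (SE 0.18; adjusted p = 0.0952, edgeR). Snhg12, which hosts both box C/D and box H/ACA snoRNAs, was at 108.5, 137.3 and 101.7 CPM in control and 101.7, 86.73 and 100.4 CPM in stress mice. The highest stress value of Snhg12 met the lowest control value to within rounding, and its log2 fold change of −0.40 (SE 0.13) did not pass the test (adjusted p = 0.066, edgeR).

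The other 3 hosts had smaller differences. Snhg1, a host of box C/D snoRNAs, was at 256.0, 286.7 and 242.2 CPM in control and 280.7, 241.7 and 258.8 CPM under stress (log2 fold change −0.14, adjusted p = 0.388, edgeR). Zfas1, which starts next to Znfx1 on the opposite strand, was at 236.8, 223.2 and 217.5 CPM in control and 224.4, 165.3 and 257.7 CPM in stress mice (−0.20, adjusted p = 0.414). 1110038B12Rik was at 262.1, 293.0 and 257.3 CPM in control and 295.3, 221.4 and 305.2 CPM in stress mice (−0.12, adjusted p = 0.597). The groups overlapped for all 3 transcripts.

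All 8 fitted log2 fold changes were below 0, with a median of −0.405, whereas the median of all genes tested was −0.0118. The fitted values allow for composition through TMM normalization, which is why 1110038B12Rik has a negative fold change although its mean CPM was 271 in control and 274 in stress mice. With library size alone as the scale, the median of all genes rose to 0.131, the share of called genes that were higher went from 55.9% to 81.7%, and 1110038B12Rik turned to 0.017, but all 8 transcripts stayed below the median of all genes. Stress mouse 2 had the lowest of the 6 values for each of the 8 transcripts in tumor cells. Without it, the median of the 8 was −0.25 and 7 of 8 were below 0, and Gas5 was at −0.24, Snhg8 at −0.26, Epb41l4aos at −0.29, Snhg12 at −0.30, Snhg1 at −0.058, Zfas1 at −0.017 and 1110038B12Rik at 0.043. After thinning to 1000 UMIs, without the shallower cells, the median was −0.189 and 6 of 8 were below 0.

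Several properties of the tumor cells moved with the groups. The mitochondrial share of UMIs was 3.71 to 4.70% in control and 5.41 to 5.72% in stress mice. The nuclear RNA Malat1 was at 3308 to 3566 CPM in control and 4338 to 6944 CPM in stress mice. Neat1, also a nuclear RNA, overlapped between the groups, at 336.9 to 347.9 CPM in control and 287.2 to 379.1 CPM in stress mice. The 4 tumor cell markers summed to 605 to 687 CPM in control and 705 to 897 CPM in stress mice, and the 7 endothelial markers to 21.5 to 27.0 against 28.7 to 40.3 CPM. The marker sums of the other 9 cell classes overlapped between the groups. The highest sum of the monocyte markers was 27.4 CPM in control and 26.4 CPM in stress mice. For the inflammatory myeloid markers it was 60.1 and 126 CPM, and for the neutrophil markers 23.2 and 49.0 CPM. Alb, Apoa1, Ttr, Cd79a, Ms4a1, Cd3e and Dcn were under 1 CPM in every mouse. Of the monocyte markers, only Adgre1 and Ccr2 were. The low markers therefore do not show that myeloid RNA was absent from the tumor cell sums. The share of ribosomal protein UMIs overlapped, at 22.6 to 24.4% in control and 20.7 to 24.6% in stress mice, and was lowest in stress mouse 2. The part of these differences in the level of 2410006H16Rik was not tested.

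In the other 7 cell types with at least 10 cells in every mouse, none of the 8 transcripts passed the edgeR test. At an unadjusted p under 0.05 there were 4 of 8 in endothelial cells (ECs), 2 in dendritic cells (DCs), 1 each in B cells, monocytes and monocytic myeloid-derived suppressor cells (M-MDSCs), and 0 in NK/T cells and inflammatory myeloid cells. The share of all genes at that level was 15.6% in ECs, 17.0% in DCs, 11.1% in B cells, 12.0% in monocytes, 9.56% in M-MDSCs, 13.1% in NK/T cells and 3.96% in inflammatory myeloid cells. DESeq2 called 2410006H16Rik in DCs, ECs and M-MDSCs, where it called 5.47%, 2.69% and 1.09% of all genes, and 0 transcripts in the other 4. The background was also low in these cells: in either direction, 0.213% of genes were called in ECs, 0.122% in monocytes, 2.64% in DCs, 0.561% in M-MDSCs, 0.483% in B cells, 0.857% in NK/T cells and 0.0% in inflammatory myeloid cells (365 of 9219 genes at an unadjusted p under 0.05, and 5 called by DESeq2). The median log2 fold change of the 8 transcripts was −0.328 in ECs, −0.386 in monocytes, −0.353 in DCs, −0.548 in inflammatory myeloid cells, −0.187 in B cells, −0.197 in NK/T cells and −0.185 in M-MDSCs. The median of all genes lay between −0.0157 and 0.00242 in the same fits. All 8 transcripts were below 0 in ECs, monocytes, DCs and inflammatory myeloid cells, 7 in M-MDSCs, and 6 in B cells and NK/T cells. Stress mouse 2 was the lowest of the 6 mice for 7 of 8 transcripts in DCs, 6 in B cells, M-MDSCs and NK/T cells, 5 in ECs and 3 in monocytes and inflammatory myeloid cells. Without it the median was −0.247 in ECs, −0.25 in monocytes and −0.291 in inflammatory myeloid cells (8 of 8 below 0 in each), −0.227 in DCs (7 of 8), −0.0992 in M-MDSCs and −0.063 in NK/T cells (5 of 8 in each), and 0.00826 in B cells (3 of 8). Other mice also moved it. Without stress mouse 1 the median was −0.676 in monocytes, −1.08 in inflammatory myeloid cells and −0.446 in B cells. Without control mouse 1 it was −0.162 in monocytes, −0.304 in inflammatory myeloid cells and −0.19 in B cells. After thinning, the median was −0.205 in ECs (6 of 8 below 0), −0.336 in monocytes (7 of 8) and −0.128 in NK/T cells (5 of 8). Fewer transcripts passed the low-count filter in the rest: the median was −0.127 in DCs (6 of the 6 tested below 0), −0.816 in inflammatory myeloid cells (7 of 7), −0.151 in M-MDSCs (3 of 5) and −0.522 in B cells (2 of 2). Thinning left out 140 of 506 control and 131 of 1050 stress DCs, and 734 of 3553 control and 250 of 2754 stress inflammatory myeloid cells.

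**Figure D2:**
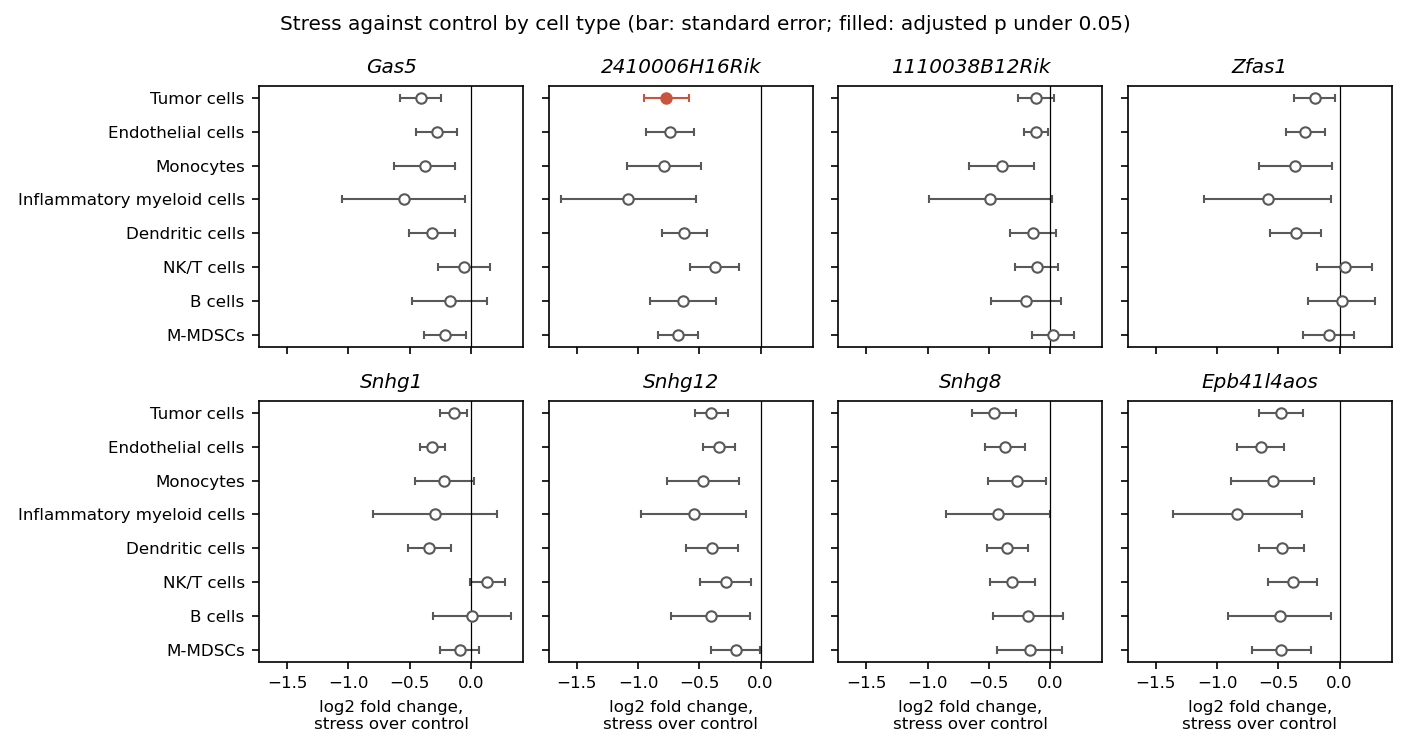
Log2 fold change of stress over control (horizontal axis) for the 8 transcripts in the 8 cell types tested, with the standard error as bars. The filled red point is the only value past the threshold, 2410006H16Rik in tumor cells at −0.77, and open points did not pass. Most points lie left of 0, and Snhg1 and Zfas1 lie at or above 0 in NK/T and B cells.

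2410006H16Rik had a negative log2 fold change in 8 of 8 cell types, as did 14.2% of the 5436 genes tested in all 8. It ranged from −0.37 in NK/T cells to −1.08 in inflammatory myeloid cells. The NK/T value was −0.18 without stress mouse 2 and −0.59 without stress mouse 1, and the B cell value of −0.63 was −0.40 without stress mouse 2. 2410006H16Rik was the lowest of the 8 transcripts in 7 of the 8 cell types, with Epb41l4aos lower in NK/T cells at −0.38. The stress mice were below the control mice without overlap in 6 cell types, a number reached by 2.56% of the 5436 genes. These cell types come from the same 6 mice and are not independent of each other.

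In ECs 2410006H16Rik was at 415.2, 372.3 and 386.0 CPM in control and 309.9, 184.8 and 219.3 CPM under stress, giving a log2 fold change of −0.74 (SE 0.20; adjusted p = 0.174, edgeR). In DCs it was at 653.1, 527.0 and 731.5 against 450.3, 319.1 and 382.0 CPM (−0.62, adjusted p = 0.0966). In M-MDSCs it was at 809.6, 709.4 and 677.2 against 434.2, 397.9 and 540.7 CPM (−0.67, adjusted p = 0.131). The groups were apart in each of these 3 cell types, as they were in B cells and NK/T cells. Of all genes tested, 10.1% were apart in this direction in tumor cells, 10.3% in ECs, 17.1% in DCs, 13.3% in NK/T cells, 8.54% in B cells and 7.33% in M-MDSCs.

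In monocytes the groups overlapped, at 566.8, 305.9 and 399.4 CPM in control and 341.6, 197.6 and 175.0 CPM under stress (log2 fold change −0.79, SE 0.30, adjusted p = 0.372, edgeR). In inflammatory myeloid cells, with a median of 1547 UMIs per cell, the spread was widest: 739.3, 268.8 and 577.5 against 387.7, 110.4 and 178.9 CPM (adjusted p = 0.994). Same-numbered control and stress libraries deviated together (r over 0.1 in every pair) in DCs, ECs, monocytes and NK/T cells. The lowest r was 0.117 in DCs and 0.123 in ECs, and the labels do not say that a number marks a shared batch. With the replicate number as a block, 2410006H16Rik had an adjusted p of 0.00978 in DCs and 0.0483 in monocytes, and Epb41l4aos had one of 0.0395 in ECs (edgeR), where the block called 6.28%, 1.67% and 0.93% of all genes in turn. In NK/T cells the block called 0 of 8 transcripts and 2.05% of all genes.

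**Figure D3:**
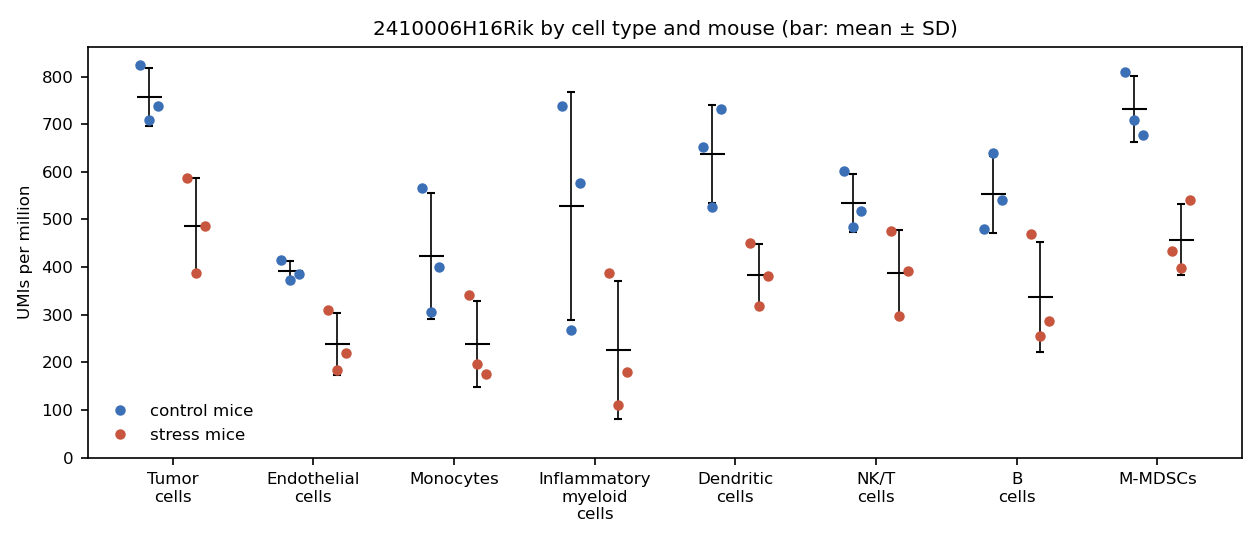
CPM of 2410006H16Rik per mouse in 8 cell types, control mice in blue and stress mice in red, with mean ± SD as black bars and the axis starting at 0. The groups are apart in tumor cells, ECs, DCs, NK/T cells, B cells and M-MDSCs and overlap in monocytes and inflammatory myeloid cells.

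The ratio of 2410006H16Rik to Gas5, the pair of hosts most alike across clusters, does not depend on the UMI total of a library. In tumor cells it was 0.867, 0.838 and 0.79 in control and 0.673, 0.644 and 0.62 in stress mice. All stress ratios were below all control ratios in 6 of 8 cell types, B cells and inflammatory myeloid cells being the exceptions. How often the ratios of other genes to Gas5 were apart in this way was not counted, so this number has no background. No test was made on this ratio, which was chosen after the values were seen.

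The stress effect was then compared between cell types in a single fit with the mouse as a block. The effect in tumor cells minus that in ECs was 0.065 (SE 0.11) for 2410006H16Rik and ranged from −0.043 for Gas5 to 0.25 for Snhg1 and Epb41l4aos, with 0 of 8 called and 0 at an unadjusted p under 0.05, against 0.13% and 12.2% of all genes (edgeR). The effect in tumor cells minus that in monocytes was 0.073 (SE 0.21) for 2410006H16Rik and ranged from −0.15 to 0.32, with 0 of 8 called and 0 at an unadjusted p under 0.05, against 0.0634% and 7.58% of all genes. Its direction depended on single mice. In the main fit 1 of 8 was below 0 (median 0.148), against 8 of 8 without control mouse 1 (−0.137) and 6 of 8 without stress mouse 3 (−0.053). With these standard errors, unequal effects in the cell types cannot be set aside. The call in tumor cells alone is therefore not shown to be particular to them.

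The levels by cell type give the background for these changes. Tumor cells or HSCs came highest for every transcript in the mean over 6 mice, and M-MDSCs came next to tumor cells for each. 2410006H16Rik averaged 622.3 ± 165.3 CPM in tumor cells, 594.8 ± 163.4 in M-MDSCs and 331.0 ± 143.6 in monocytes (SD, n = 6). Snhg1 averaged 261.0 ± 19.0 CPM in tumor cells, 249.0 ± 29.0 in M-MDSCs and 123.1 ± 31.4 in monocytes.

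1110038B12Rik averaged 272.4 ± 31.5 CPM in tumor cells and 98.07 ± 32.3 in monocytes. Summed over the 8 transcripts, the mean level in control and stress mice was 2869 and 2347 CPM in tumor cells, 1705 and 1322 in ECs, 1524 and 880.2 in inflammatory myeloid cells, and 865.5 and 455 in neutrophils. Of 72 pairs of neighbours in the orders of the 8 transcripts over 10 cell types, 65 lay within 1 SD of each other, so mainly the ends of each order are apart. The cell types differed in depth, with a median of 27716 UMIs in tumor cells, 27447.5 in M-MDSCs and 4538 in ECs. M-MDSCs were also near tumor cells in median detected genes (5469.5 against 5492) and mitochondrial share (4.79 against 4.73%). Monocytes had a median of 1987 genes and a mitochondrial share of 2.71%. How far the M-MDSC class is separate from tumor cells was not tested. The tumor markers Krt18 and Cldn6 were counted in ECs at 98.4 and 49.9 CPM against 423 and 137 in tumor cells, and the part of RNA from tumor cells in the levels of the other cell types was not tested.

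Within tumor cells, the host transcripts also differed between clusters. Summed over the 8 transcripts, clusters 14 and 7 had the highest mean levels in both groups, with 5162 and 4958 CPM in control and 4401 and 3597 CPM in stress mice. Cluster 21 followed, with means of 3765 CPM in control and 3423 CPM in stress mice. It was above cluster 7 in stress mouse 1 (3811 against 3701 CPM) and stress mouse 3 (4098 against 3777 CPM). The lowest was cluster 4 in control mice, at 1840 CPM, and cluster 3 in stress mice, at 1798 CPM, where clusters 5, 1 and 4 followed at 1915, 1947 and 1987 CPM. Gas5 averaged 1585 ± 325 CPM in cluster 7, 1524 ± 228 in cluster 14 and 524 ± 94 in cluster 4, so that cluster 7 held 3.02 times the level of cluster 4. 2410006H16Rik averaged 1248 ± 317 CPM in cluster 14, 1085 ± 320 in cluster 7 and 405.6 ± 78.4 in cluster 4. The highest and lowest clusters differed by 2.01 times for 1110038B12Rik to 3.42 times for Snhg1.

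Clusters 7 and 14 differed in which hosts they held at the highest level. Snhg1 averaged 565.7 ± 67.0 CPM in cluster 14 and 272.9 ± 49.1 in cluster 7, and cluster 14 was its highest cluster in 6 of 6 mice. Zfas1 was likewise highest in cluster 14 in 6 of 6 mice. Epb41l4aos was highest in cluster 7 in 5 of 6 mice. Snhg8 reached its highest mean in cluster 21, at 298.3 ± 51.6 CPM, against 266.8 ± 53.1 in cluster 7. Of 72 neighbour pairs in the cluster orders, 62 lay within 1 SD.

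Ribosomal protein transcripts made up 30.4% of UMIs in cluster 7, 26.4% in cluster 14 and 19.1% in cluster 4. Cluster 21 had the largest ribosomal protein share, 42.3%, with few detected genes (median 1745) and little Malat1 (204.4 CPM). Cluster 17 was shallow, with a median of 1852 UMIs per cell. Clusters 7, 14 and 4 had medians of 27163, 32946 and 36299 UMIs. The clusters were built by the authors from these same cells, so differences between clusters are a description.

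**Figure D4:**
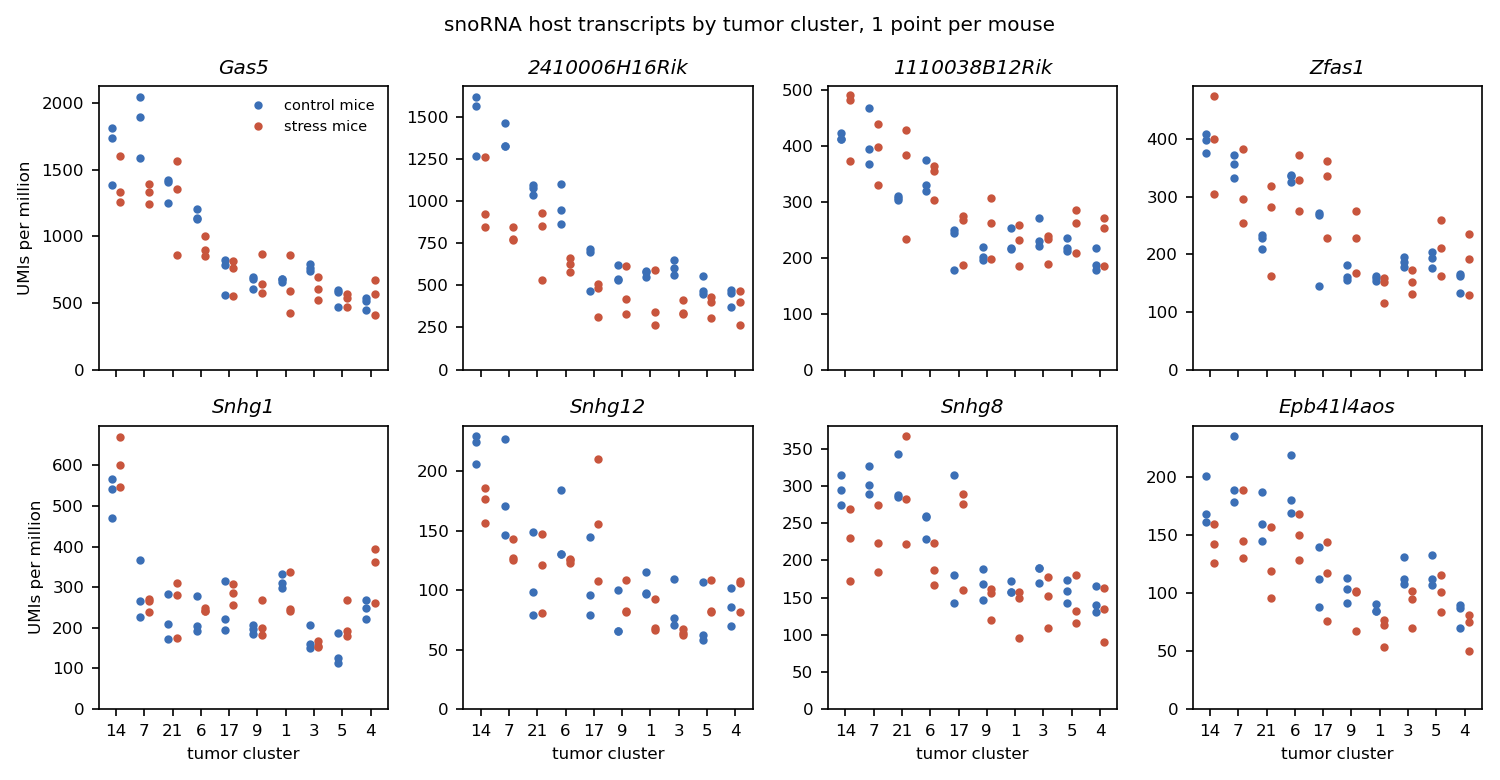
CPM of the 8 transcripts in the 10 tumor clusters, 1 point per mouse, control in blue and stress in red, with every axis starting at 0. Clusters 14 and 7, at the left, are high for most transcripts, and Snhg1 stands apart in being high in cluster 14 (565.7 on average) but not in cluster 7 (272.9).

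Across 60 points, each a mouse and a tumor cluster, log2(CPM + 1) centred within each mouse gave Pearson correlations of 0.241 to 0.979 among the 28 pairs of transcripts, with a median of 0.821 and 22 pairs over 0.7. Gas5 and 2410006H16Rik were the most alike (0.979), followed by 2410006H16Rik and 1110038B12Rik (0.965). Snhg1 was the least like the rest, at 0.551 with the mean of the other 7 against 0.838 to 0.956 for the others. The points share their mice, libraries and differences in depth. The set was chosen by its levels across these clusters, so its correlations are a description. Pairs of other genes were not correlated for comparison. Among 8085 other genes with a mean of at least 10 CPM in tumor cells, the pattern most like the mean of the 8 was that of Snhg6 (r = 0.763), a noncoding snoRNA host. Next came the ribosomal protein gene Rps12 (0.696), Tecpr2 (0.692), Nup210l (0.687), the ribosome biogenesis gene Nsa2 (0.683), the lipid droplet gene Plin2 (0.674), ENSMUSG00000121784 (0.673), the ribosomal subunit gene Rack1 (0.673), Rpl12 (0.667) and Gm15501 (0.666). Of these 10 genes, Rps12, Nup210l, Rack1 and Rpl12 are protein-coding snoRNA hosts. The share of hosts among all 8085 genes was not counted, so no enrichment is claimed. The mean of all ribosomal protein genes had a correlation of 0.531 with the mean of the 8.

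Stress was tested within each of the 10 tumor clusters, and 2410006H16Rik was lower in clusters 7 and 3. In cluster 7 it was at 1464, 1326 and 1326 CPM in control and 845.8, 776.7 and 770.5 CPM in stress mice. Its log2 fold change there was −0.86 (SE 0.12; adjusted p = 0.00997, edgeR), a level 45.1% lower, where 1.7% of all genes were lower. In cluster 3 it was at 650.8, 604.5 and 559.6 against 414.1, 328.0 and 336.0 CPM (−0.77, SE 0.15; adjusted p = 0.0385), where 1.55% of all genes were lower. The stress and control mice did not overlap in either cluster, which held for 8.81% of all genes in cluster 7 and 12.3% in cluster 3.

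The cluster 7 call was lost without control mouse 1 (adjusted p = 0.05 after rounding, edgeR) or stress mouse 2 (0.0564). In cluster 3 it was lost without control mouse 1 (0.132), control mouse 3 (0.129), stress mouse 2 (0.128) or stress mouse 3 (0.14). In the remaining 8 clusters 2410006H16Rik had log2 fold changes from −0.76 in cluster 6 (adjusted p = 0.0554) and −0.65 in cluster 14 (0.0762) to −0.22 in cluster 4 (0.509, edgeR), all below 0. It was the lowest of the 8 transcripts in 9 of 10 clusters.

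The other 7 transcripts passed the test in 0 of 10 clusters (edgeR). Called in either direction were 14.6% of all genes in cluster 1, 3.11% in cluster 3, 14.0% in cluster 4, 2.05% in cluster 5, 1.17% in cluster 6, 3.48% in cluster 7, 9.17% in cluster 9, 6.71% in cluster 14, 2.01% in cluster 17 and 0.855% in cluster 21. Gas5 was closest in cluster 7, at 1900, 1587 and 2049 CPM in control and 1392, 1246 and 1337 CPM under stress (log2 fold change −0.56, adjusted p = 0.0642, edgeR). Snhg12 was closest in cluster 14, at 224.9, 229.8 and 206.3 against 186.0, 156.3 and 177.0 CPM (−0.44, adjusted p = 0.0537). The groups did not overlap in either case, as for 8.23% of all genes in cluster 14. The median of the 8 transcripts was −0.485 in cluster 7, −0.399 in cluster 6, −0.372 in cluster 14, −0.348 in cluster 3 and −0.249 in cluster 1. It was −0.0032 in cluster 5 and between 0.0947 and 0.147 in clusters 17, 9, 21 and 4. Without stress mouse 2 it was −0.352 in cluster 7, −0.354 in cluster 6, −0.256 in cluster 14, −0.212 in cluster 3, −0.0861 in cluster 1 and 0.127 in cluster 5, and between 0.215 and 0.419 in clusters 9, 17, 4 and 21. Without stress mouse 1 it was below 0 in every cluster. It was then −0.137 in cluster 9, −0.0866 in cluster 21, −0.0346 in cluster 17, −0.0211 in cluster 4, −0.0562 in cluster 5 and −0.455 in cluster 1. In clusters 9 and 4 the sign changed only without stress mouse 1. In cluster 17 the median was also below 0 without control mouse 3 (−0.0915) or stress mouse 3 (−0.0159). In cluster 21 it was also below 0 without control mouse 2 (−0.0275) or stress mouse 3 (−0.102). Snhg1 had values above 0 in 7 of 10 clusters, from 0.016 in cluster 6 to 0.44 in cluster 4 and 0.55 in cluster 5 (adjusted p = 0.157), against −0.22 in cluster 7.

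The stress effect in cluster 7 minus that in all other tumor cells was between −0.23 for Gas5 and −0.044 for Epb41l4aos, and −0.17 (SE 0.094) for 2410006H16Rik. None of the 8 was called (lowest adjusted p 0.408, edgeR, with 2 of 8 at an unadjusted p under 0.05), against 0.0349% of all genes called and 8.53% at an unadjusted p under 0.05. Tumor cells without cluster 7 gave −0.74 for 2410006H16Rik (adjusted p = 0.0348). The share of tumor cells in cluster 7 overlapped between the groups, at 9.98 to 11.8% in control and 8.38 to 14.5% in stress mice. The share in cluster 14, the other cluster rich in host transcripts, was 7.30 to 7.49% in control and 3.75 to 4.03% in stress mice. With each of the 10 clusters given equal weight, the mean of the log2 fold changes fitted within clusters was −0.54 for 2410006H16Rik and −0.18 for Gas5.

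Other genes of the pathway were taken from lists, by the same fit in tumor cells, in which 12.0% of all genes rose and 9.46% fell. Of 16 other noncoding snoRNA hosts tested, 3 rose and 0 fell (18.8% called in either direction, against 21.4% of all genes), with a median log2 fold change of 0.108. Snhg15 rose from 29.0 ± 3.36 to 41.9 ± 1.8 CPM (0.40, adjusted p = 0.032, edgeR), and the other two, Rian and Snhg14, were under 1 CPM in every mouse. The list of other noncoding hosts was taken by symbol and holds 2 identifiers named Snhg4. One of these, and Snhg11, are typed as protein-coding in GENCODE M21, so both also stand in the next list, and neither passed the test. Of 250 protein-coding genes that hold a snoRNA in an intron, 16 rose and 26 fell (16.8% called in either direction), with a median of −0.0998. The 4 of these with the largest changes, D430041D05Rik, Gm49359, Htr2c and Shcbp1l, rose from means of 0.0394 to 2.62 CPM. The protein-coding list shares genes with later lists, so the counts of the lists are not separate. Before the low-count filter, 30 of its 273 genes were ribosomal protein genes, and Eef2 and Nop58 also recur below.

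Transcripts of the proteins that bind snoRNAs were listed next. Of 17 genes for snoRNA-protein particles and their assembly, 3 fell and 1 rose (median −0.0359), a share of 23.5% called in either direction against 21.4% of all genes. Nop10, a core protein of box H/ACA particles, fell from 418.4 ± 28.9 to 308.7 ± 19.0 CPM (−0.58, adjusted p = 0.00785, edgeR). Fbl, the methyltransferase of box C/D particles, fell from 254.2 ± 12.5 to 197.8 ± 24.97 CPM (−0.50, adjusted p = 0.0184), and Gar1, another box H/ACA protein, had a log2 fold change of −0.41 (0.047). Nop58, also a box C/D core protein, rose from 151.2 ± 2.15 to 208.1 ± 9.29 CPM (0.32, adjusted p = 0.033).

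Genes known as TOP mRNAs were listed by name, not by a tract found at their starts. Of 15 translation factors and other TOP mRNAs outside the ribosomal proteins, 4 fell and 0 rose (median −0.113), or 26.7% called in either direction against 21.4% of all genes. Eef2, the elongation factor that drives translocation, fell from 817.4 ± 50.8 to 563.4 ± 8.66 CPM (−0.68, adjusted p = 0.0058, edgeR). Eif3f had a log2 fold change of −0.69, Eef1a1 of −0.63 and Eif4b of −0.41, all past the threshold. Of 82 ribosomal protein genes tested, 6 fell and 3 rose (median −0.151), or 11.0% called in either direction against 21.4% of all genes. Among them Rps14 had a log2 fold change of −0.55 and Rps15 of −0.54, whereas Rpl10 was at 0.85 and Rpl35 at 0.57, and reads of these genes may be split with their many near-identical copies.

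Of 14 nonsense-mediated decay factors, 1 fell, the kinase Smg1 (−0.30, adjusted p = 0.0439, edgeR), and 0 rose (median −0.105). Of 14 genes of the integrated stress response, the translational response to cellular stress, 1 fell, Ddit4 (23.4 ± 7.45 to 12.5 ± 0.587 CPM, −1.05, adjusted p = 0.0189), and 0 rose (median −0.0381). Both lists had 7.14% of their genes called, below the 21.4% of all genes. These lists are described by their counts and medians beside those of all genes, and no test of a list as a whole was made.

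**Figure D5:**
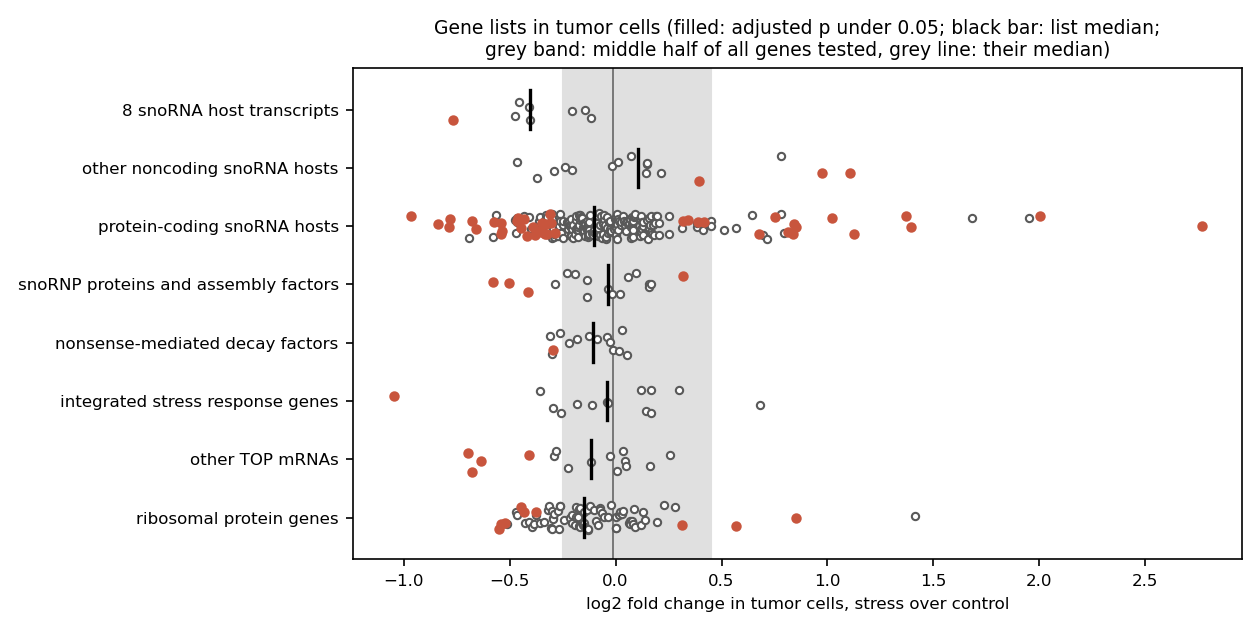
Log2 fold change of stress over control in tumor cells (horizontal axis) for each gene of 8 lists, 1 point per gene, filled red where the adjusted p was under 0.05. Black bars are list medians, from −0.405 for the 8 host transcripts to 0.108 for the other noncoding hosts, and the grey band and line give the middle 50% and the median (−0.0118) of all genes tested.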

How the data were processed

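Tumor tissue of 3 control and 3 stress mice was measured by 10x Genomics single-cell RNA sequencing. The authors deposited UMI counts for each gene and cell, without normalization, and a table of the mouse, cluster and cell type of each annotated cell. Per the labels, mm10, Cell Ranger and Seurat were used. The study kept cells with 200 or more genes and a mitochondrial share up to 20%. For the counting, the gene annotation, intron mode and strand were not given in the sources used here. Doublets had been screened by the authors and were not called again.

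Counts of annotated cells were summed per mouse and cell type or tumor cluster and fitted by quasi-likelihood in edgeR 4.0.16 under R 4.3.3 (filterByExpr, TMM, Benjamini-Hochberg over all genes of a fit, threshold 0.05). Neutrophils and HSCs, under 10 cells in a mouse, were not tested. All 8 transcripts passed the low-count filter in each cell type and cluster tested, and 2 to 8 did after thinning. SE is the absolute log2 fold change divided by the square root of F. CPM are UMIs per 1000000 UMIs of the summed cells, without TMM. Tables and figures used Python 3.11.15 with pandas 2.3.3 and matplotlib 3.10.9. Alternatives were DESeq2 1.42.0, RLE size factors, library size only, no filter, thinning cells to 1000 UMIs with shallower cells left out, cells with at least 2000 UMIs, a replicate block, tumor cells without cluster 7 and leaving out each mouse. The comparison of cluster 7 with other tumor cells was added after seeing the data. The test was run on simulated data only with log2 fold changes larger than those of the 8 transcripts in tumor cells. It was therefore not checked at the effects reported here.

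The members and lists were chosen with earlier results of these data known. Of each list, up to 4 genes past the threshold with the largest absolute log2 fold change in tumor cells were named, as were the 10 genes most like the mean of the members. Each library is 1 mouse. Of 34099 identifiers, 32061 were in GENCODE M21.

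Control and stress libraries of the same number deviated together in every pair (r over 0.1) in DCs, ECs, monocytes and NK/T cells, with correlations of 0.117 to 0.697. The labels do not say that a number marks a shared batch.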

Additional observations from a re-analysis of the deposited data

How the results depend on the processing

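Of 438 alternative log2 fold changes over 39 results, 389 kept their direction and side of the threshold. For values without a test, keeping meant moving by less than the spread between mice. Most of these results were not called in the main fit, so keeping their side meant staying uncalled. The called ones, all of 2410006H16Rik, were kept less often: in 10 of 15 alternatives in tumor cells, 4 of 8 in cluster 3 and 6 of 8 in cluster 7. In tumor cells 1 transcript was called, against 0 to 1 when a mouse was left out, 0 after thinning to 1000 UMIs, and 4 by DESeq2. Over all alternatives the adjusted p of 2410006H16Rik in tumor cells ran from 0.000561 to 0.0837. Same-numbered tumor libraries deviated together in pairs 1 and 2 (r = 0.656 and 0.550) but not in pair 3 (−0.242), and 2 of 3 correlated best with their own number. With the replicate block, 4 transcripts were called in tumor cells (adjusted p 0.00401 for 2410006H16Rik, 0.0198 for Epb41l4aos, 0.0251 for Gas5 and 0.0423 for Snhg8, edgeR), where 27.0% of all genes were called (5088). The block called 1 transcript each in DCs (6.28% of all genes), ECs (0.93%), M-MDSCs (1.31%) and monocytes (1.67%), 3 in cluster 1 (18.9%), 2 in cluster 3 (9.5%), 1 in cluster 6 (1.65%), 3 in cluster 7 (6.09%) and 3 in cluster 14 (6.67%). It changed no other count of called transcripts. DESeq2 called 1 in each of DCs (5.47% of all genes), ECs (2.69%) and M-MDSCs (1.09%). Without the low-count filter, 1 was called in DCs (3.79% of all genes) and 1 in M-MDSCs (1.65%). Leaving out a mouse gave 0 to 1 in DCs, 0 to 3 in cluster 1, 0 to 1 in cluster 3, 0 to 1 in cluster 4, 0 to 2 in cluster 5, 0 to 4 in cluster 6, 0 to 3 in cluster 7 and 0 to 2 in cluster 14. In the fits with the highest of these counts, the share of all genes called was 3.66% in DCs, 10.1% in cluster 1, 0.969 and 9.6% in cluster 3, 6.81% in cluster 4, 14.5% in cluster 5, 12.3% in cluster 6, 12.1% in cluster 7, and 3.29 and 12.2% in cluster 14. The counts are of calls in either direction. 2410006H16Rik was not called in clusters 4 and 5 (lowest adjusted p 0.165 and 0.0822, edgeR). In the cluster 4 fit with a call, 1 of 8 transcripts was below 0 (median 0.324). In that of cluster 5, 4 of 8 were (median 0.00323).

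The direction reversed after thinning for Snhg1 (0.074) and 1110038B12Rik (0.018) in tumor cells and for Snhg12 (0.022) and 1110038B12Rik (0.24) in ECs, and with library size only for 1110038B12Rik in tumor cells (0.017). Leaving out a mouse gave −0.23 to 0.043 for 1110038B12Rik in tumor cells and −0.45 to 0.0090 for 2410006H16Rik in cluster 4, the positive values without stress mouse 2. None of these values passed the test in either direction, and the cause was not tested. With equal weight per cluster, Zfas1 was at 0.042, Snhg1 at 0.12 and 1110038B12Rik at 0.061, all above 0, and Snhg12 went from −0.40 to −0.085 and Gas5 from −0.41 to −0.18.

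Counts over all genes moved more. Tumor cells had 4041 called genes, 5129 by DESeq2, 484 after thinning and 1191 to 5790 without a mouse. B cells had 28, then 306 without the filter, 54 with the block, 58 by DESeq2, 13 after thinning and 6 to 40 without a mouse. DCs had 278, then 815, 661 with the block, 25 after thinning and 65 to 354 without a mouse. ECs had 30, then 107 without the filter, 131 with the block, 371 by DESeq2 and 3 to 46 without a mouse. Inflammatory myeloid cells had 0, then 4 by library size, 80 without the filter, 9 with the block, 5 by DESeq2 and 5 after thinning. M-MDSCs had 53, then 321, 124 with the block, 10 after thinning and 25 to 90 without a mouse. Monocytes had 15, then 214, 205 with the block, 168 by DESeq2, 9 after thinning and 3 to 64 without a mouse. NK/T cells had 96, then 479, 229 with the block, 166 by DESeq2, 213 after thinning and 38 to 125 without a mouse. With library size only, the share of calls that were higher went from 80.6% to 61.0% in DCs and from 62.5% to 51.0% in NK/T cells, and by DESeq2 from 86.7% to 59.5% in monocytes.

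With 3 mice per group an exact permutation test of a single value cannot go below 0.1. Neutrophils and HSCs were too few to test.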
